A study of Mus musculus with 51 samples.

Results

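Keratins are filament proteins that assemble as pairs of a type I and a type II chain, and stratified epithelia change their pair as cells leave the basal layer. Suprabasal cells of the mouth and oesophagus are known for the pair Krt4 (type II) and Krt13 (type I), whereas those of the epidermis are known for Krt1 (type II) and Krt10 (type I), with Krt2 in the upper epidermal layers. The genes described here are 7 suprabasal keratins chosen by symbol: Krt4, Krt13 and Krt78 as the oesophageal type and Krt1, Krt2, Krt10 and Krt80 as the epidermal type. All 7 were found among the 52636 genes of the count table. Krt78 and Krt80 are type II keratins of stratified epithelia that are less studied, and Krt80 is known to lie near desmosomes, the junctions that hold keratinocytes together.

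In EpCAM-high cells of the group SmoM2, the oesophageal pair fell and the epidermal pair rose against EpCAM-low wild-type oesophagus, but Krt13 stayed the most abundant of the 7 per length of transcript. Normal squamous cells of the squamocolumnar junction held Krt1 and Krt10 together, with little Krt4. The SmoM2 group held Krt10 with far less Krt1, which was also so in wild type at lower levels of both. In EpCAM-low SmoM2 cells the epidermal pair was not called higher than in wild type.

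The study sequenced total RNA of sorted mouse epithelial cells in 51 libraries of 14 groups. SmoM2 encodes Smoothened, which passes Hedgehog signals into the cell, with a mutation that keeps it switched on. The genotype label Krt5-SmoM2 joins it to Krt5, a gene of basal squamous cells. WT is wild-type oesophagus of strain CD1 sorted for low EpCAM, an adhesion molecule of epithelial cells (n = 6), and SmoM2 is Krt5-SmoM2 oesophagus of CD1 sorted for high EpCAM (n = 6). K8YFP+ and K8YFP- are EpCAM-high cells of Krt5-SmoM2-Krt8YFP oesophagus, of mixed background, with and without the YFP reporter of Krt8, a keratin of simple epithelia (n = 3 each). Sox9cKO is EpCAM-high Krt5-SmoM2-Sox9fl/fl oesophagus (n = 4), in which the transcription factor gene Sox9 is floxed and which therefore also carries SmoM2. A time series of Krt5-SmoM2 oesophagus, labelled 3w and 7w, was sorted into EpCAM-high and EpCAM-low cells (n = 4 in each of its 4 groups). The event from which the 3 and 7 weeks were counted is not given in the sources used here. Krt8YFP mice without SmoM2 gave the EpCAM-high YFP-negative squamous cells (n = 3) and EpCAM-high YFP-positive columnar cells (n = 4) of the junction, YFP-positive cells of stomach and gut (n = 2 each), and EpCAM- and YFP-sorted oesophagus of E13.5 embryos (n = 2). Strain is not given for the time series, Sox9cKO or the junction squamous cells, and ages of the animals are not given. WT and SmoM2 therefore differ in the EpCAM gate as well as in genotype, and their effects cannot be told apart in that comparison. The leading number of the raw names, whose meaning is not given, also has no value in common between WT and SmoM2, the time series or junction squamous cells, nor between junction squamous and columnar cells, and it cannot be told apart from those groups either.

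The smallest library held 1.61 M counts and the largest 12.3 M, and K8YFP+ (1.61 to 6.71 M) had the lowest. The squamous groups held the basal genes Trp63, Krt5 and Krt14, and gut held Cdx2, so that tissue labels and defining markers went together. The Hedgehog target Gli1 had a mean of 0.703 CPM (counts scaled to the library total) in WT and 220 CPM in SmoM2. Sox9 was at 45.7 to 127 CPM in Sox9cKO and at 72.7 to 194 CPM in SmoM2, ranges that overlapped, and counts over a whole gene need not show a floxed deletion. WT 3 and 5, and WT 4 and 6, were closer to each other (chi-square per degree of freedom 1.83 and 2.31) than the 13 other WT pairs (9.94 to 31.5), and the raw names of each such pair differ only in the leading number. The raw name of WT 2 also differs from those of WT 3 and 5 only in that number, yet WT 2 was far from both (22.3 and 23.8). Names alone thus do not mark the close pairs. The 6 WT libraries may be 4 separate samples in place of 6, and p-values measure the spread between these libraries. In bulk RNA of sorted cells, fewer cells with a transcript and less transcript per cell cannot be told apart.

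The 7 genes lie in the 2 keratin clusters of the mouse genome (GRCm38, GENCODE M21), all on the minus strand. The type I genes Krt10 (chr11:99385254-99389364) and Krt13 (chr11:100117327-100121566) mark the ends of a stretch of 736 kb on chromosome 11. The type II genes Krt2 (chr15:101810689-101818169), Krt1 (chr15:101845426-101850794), Krt4 (chr15:101918535-101924735) and Krt78 (chr15:101946001-101954287) lie in this order within 144 kb of chromosome 15. That stretch holds 7 protein-coding genes, and all 7 are keratins. Krt80 (chr15:101347444-101370162) lies at the other side of the same cluster, 607 kb being spanned from Krt80 to Krt78. Genes of the oesophageal and of the epidermal type are thus neighbours on chromosome 15.

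Krt13 and Krt10 are shown by the 250 bases before their starts, since these type I genes of the same cluster moved in opposite directions in SmoM2 cells (sequence and starts from RefSeq, GRCm38.p6). Capitals mark motif matches. In Krt13 (chr11:100121567-100121816, minus strand) the match is to TGANTCA, a loose form of the AP-1 motif that allows any base at N, here A. In Krt10 (chr11:99389365-99389614, minus strand) it is to TATAAA, a form of the TATA box.
Krt13: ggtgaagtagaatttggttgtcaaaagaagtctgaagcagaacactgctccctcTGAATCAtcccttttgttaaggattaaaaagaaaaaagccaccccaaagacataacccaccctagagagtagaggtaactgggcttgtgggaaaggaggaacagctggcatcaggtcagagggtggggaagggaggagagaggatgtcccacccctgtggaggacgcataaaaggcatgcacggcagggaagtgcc
Krt10: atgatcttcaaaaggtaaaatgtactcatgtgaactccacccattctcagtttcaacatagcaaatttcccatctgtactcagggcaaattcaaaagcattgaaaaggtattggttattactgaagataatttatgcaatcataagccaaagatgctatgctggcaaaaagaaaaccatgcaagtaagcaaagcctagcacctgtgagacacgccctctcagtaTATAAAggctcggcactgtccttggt
The AP-1 match of Krt13 begins 196 bases before the start, and the TATA match of Krt10 begins 26 bases before it. Both strands were searched, and the matches do not overlap. Krt78 and Krt2 were searched in the same way and held no match to either motif. Only these letters were sought, so a window without a match may still hold another form of the TATA box. TGGGTGGTC, the motif of the Hedgehog effectors GLI, was in none of the 4 windows. Of 32851 RefSeq promoters of this length, 6.75% hold this loose form of the AP-1 motif, 12.4% the TATA motif and 0.225% the GLI motif. Krt1, Krt4 and Krt80 were not matched in the promoter table.

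Krt4 and Krt13 were abundant in WT oesophagus and low outside squamous tissue. Krt4 had a mean of 6259 ± 1935 CPM in WT (SD, n = 6), 6089 ± 1632 in K8YFP+ (n = 3) and 5242 ± 644 in 7w EpCAM-low cells (n = 4), and neighbours among these overlapped. It was between 398 and 1714 CPM in the means of the other SmoM2 groups, 59.7 in junction squamous cells, 49.1 in embryo and 2.33 to 5.85 in stomach, gut and junction columnar cells. Krt13 had the same groups at the top and bottom, from 13493 ± 3099 CPM in K8YFP+ over 7756 ± 1644 in WT to 2184 ± 146 in 3w EpCAM-high and 1368 ± 171 in junction squamous cells. The third oesophageal gene had another order. Krt78 had 108 ± 85.1 CPM in K8YFP+ and 15.1 ± 10.4 in WT, but 0.646 ± 0.291 in junction squamous cells, below stomach (9.96), gut (21) and junction columnar cells (8.03). Krt78 was thus measurable in columnar tissues, and so was Krt13, at means of 7.58 to 10.6 CPM. Krt4 and Krt13 were at 1.08 to 15.5 CPM in every library there. Divided by transcript length, Krt13 had a higher mean than Krt78 in these tissues, at 6.43 against 2.9 CPM per kb in stomach.

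The epidermal genes had their highest levels elsewhere. Krt10 was at 2312 ± 311 CPM in junction squamous cells and 1797 ± 711 in K8YFP+, which overlapped, then at 700, 664 and 489 CPM in the means of K8YFP-, SmoM2 and Sox9cKO. Krt10 was lower, at 198 ± 36.5 CPM, in 7w EpCAM-high cells, and its means of 35.8 ± 6.76 in 3w EpCAM-high and 21.5 ± 8.37 in WT overlapped in their ranges. Krt1 stood apart: junction squamous cells had 1248 ± 324 CPM and no other library of the series exceeded 78.7. Krt80 was at 467 ± 160 CPM in K8YFP+, 163 ± 25.9 in SmoM2, 49.5 ± 20.8 in WT and 27.5 ± 3.25 in junction squamous cells. Krt2 was low in every group, with 15.6 CPM in K8YFP+ 2 as its highest value and at most 3.77 in any other library. Stomach and gut had no Krt2 count, which allows up to 0.277 and 0.466 CPM (3 counts over the group, counting error only).

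**Figure D1:**
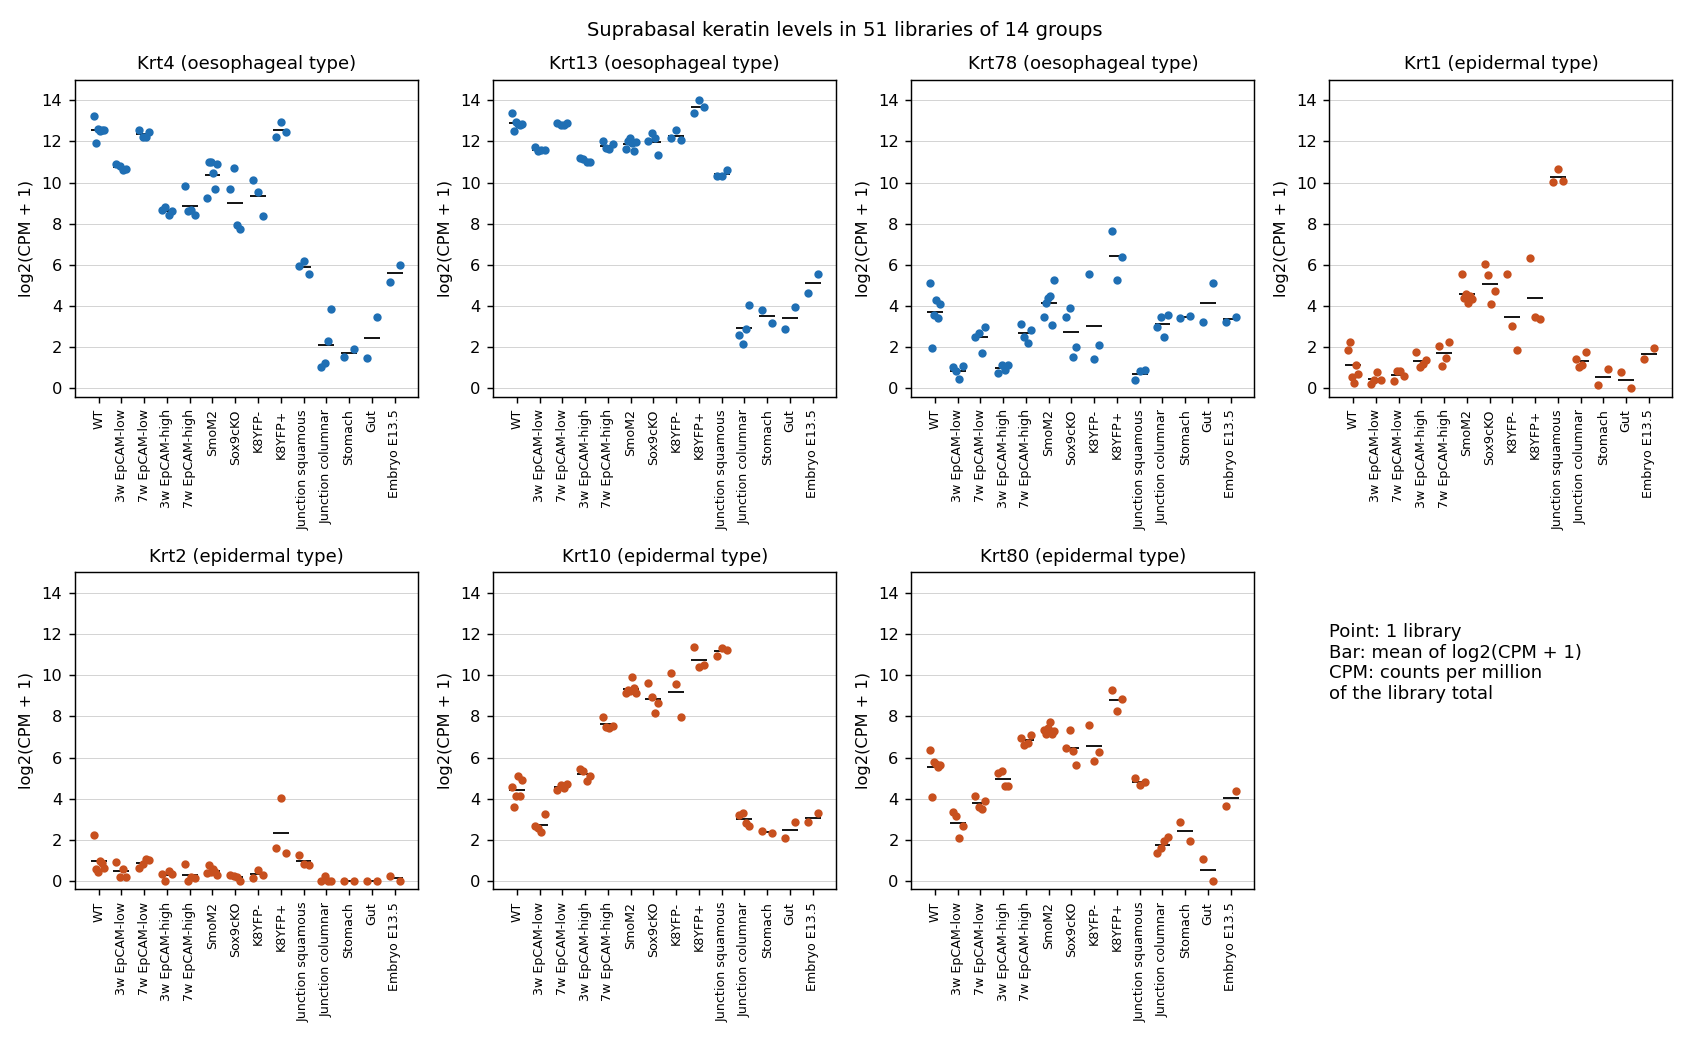
Level of each of the 7 suprabasal keratins as log2(CPM + 1) in 51 libraries of 14 groups; points are libraries, bars are means of the plotted values, and colour separates the oesophageal (blue) from the epidermal type (orange). Krt1 is at 1057 to 1622 CPM in the 3 junction squamous libraries and at most 78.7 CPM elsewhere.

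To compare the 7 genes with each other, CPM were divided by the length of each gene's principal transcript in kb. On this per-length scale the epidermal type made up 0.353% ± 0.0755 (SD, n = 6) of the sum over the 7 genes in WT, 11.6% ± 3.06 (n = 6) in SmoM2 and 65.3% ± 4.31 (n = 3) in junction squamous cells. The lowest SmoM2 library (8.57%) was above the highest WT library (0.451%), and the lowest junction squamous library (62.3%) was above all of these. Sox9cKO (9.19% ± 3.54, n = 4), K8YFP- (9.64% ± 5.21, n = 3) and K8YFP+ (9.04% ± 4.98, n = 3) overlapped with SmoM2. In the time series the share was 1.81% ± 0.257 in 3w EpCAM-high and 5.24% ± 0.0412 in 7w EpCAM-high cells, against 0.194% ± 0.0399 and 0.227% ± 0.0157 in the EpCAM-low gates. Without Krt80 the share was 0.15% in WT, 1.16% in 3w EpCAM-high cells and 0.116% in 3w EpCAM-low cells. Among squamous groups the share thus stood in steps from EpCAM-low over EpCAM-high cells of the time series to SmoM2 and the junction. No test was made of it. A share also rises where Krt4 and Krt13 fall. The sum over the 7 genes was 7655 ± 1910 CPM per kb in WT, 3371 ± 666 in SmoM2 and 2477 ± 267 in junction squamous cells. Where its mean was only 14.1 to 56.6, the share was 38.6% in junction columnar cells, 26.3% in stomach and 17.4% in gut and in embryo.

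**Figure D2:**
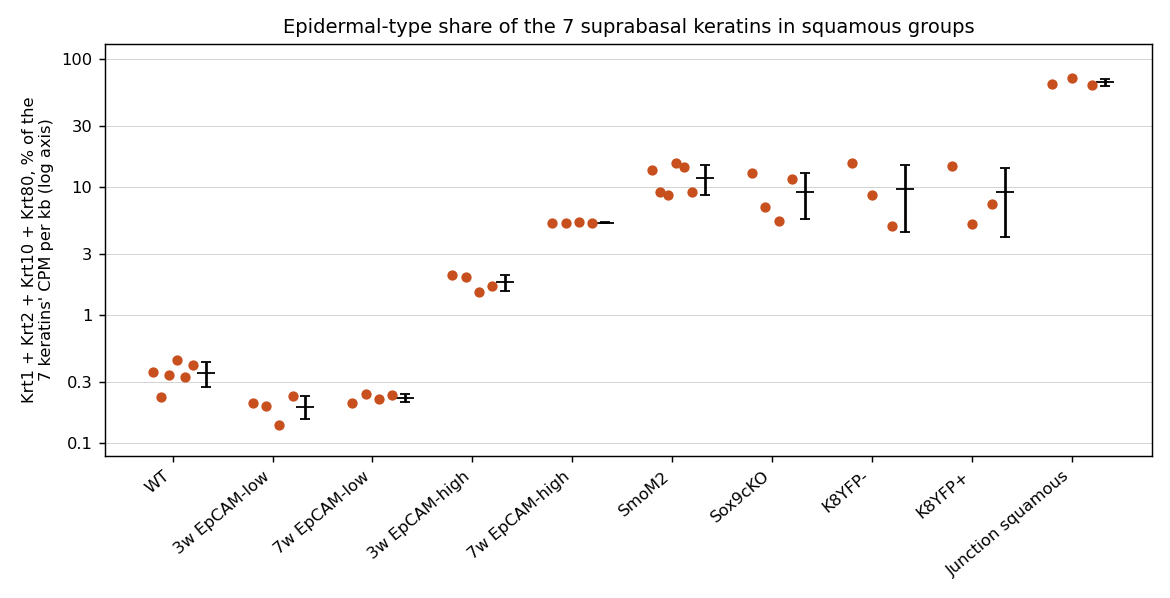
Summed Krt1, Krt2, Krt10 and Krt80 as a percentage of the 7 keratins' CPM per kb (log axis) in the 10 squamous groups; points are libraries, and the bar beside them is the mean ± SD. WT and EpCAM-low libraries lie below 0.5%, SmoM2 libraries between 8.57% and 15.2%, and junction squamous libraries at 62.3% or more.

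Krt13 made up 61.7% ± 2.39 of the 7 genes per length in WT and 68.5% ± 3.71 in SmoM2, while Krt4 made up 37.9% ± 2.33 and 19.7% ± 5.68. Within the oesophageal pair, Krt13 over Krt4 was 1.64 ± 0.17 in WT, 3.85 ± 1.6 in SmoM2, 7.14 ± 0.709 in 3w EpCAM-high and 10.2 ± 3.46 in 7w EpCAM-high cells. Junction squamous cells had 31.2 ± 11.5 (22.6 to 44.2), Sox9cKO 12.8 ± 9.42 (4.18 to 24.7), K8YFP- 10.8 ± 5.74 and embryo 0.912 ± 0.0377 (n = 2). The mean was highest in junction squamous cells, whose range overlapped with that of Sox9cKO. The epidermal pair was uneven too. Krt10 over Krt1 per length was 2.23 ± 0.417 in junction squamous cells, but 36.7 ± 17.3 in SmoM2 (14.6 to 67.7), 127 ± 77.3 in K8YFP+ and 115 ± 55.9 in 7w EpCAM-high cells. No library of these SmoM2 groups reached the junction's range (1.84 to 2.67). The ratio was 50.7 ± 66.6 in WT (3.52 to 181), on few counts of Krt1. It was 24.9 ± 15.1 in 3w and 53.8 ± 25.9 in 7w EpCAM-low cells. An excess of Krt10 over Krt1 was thus not particular to the EpCAM-high SmoM2 cells.

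**Figure D3:**
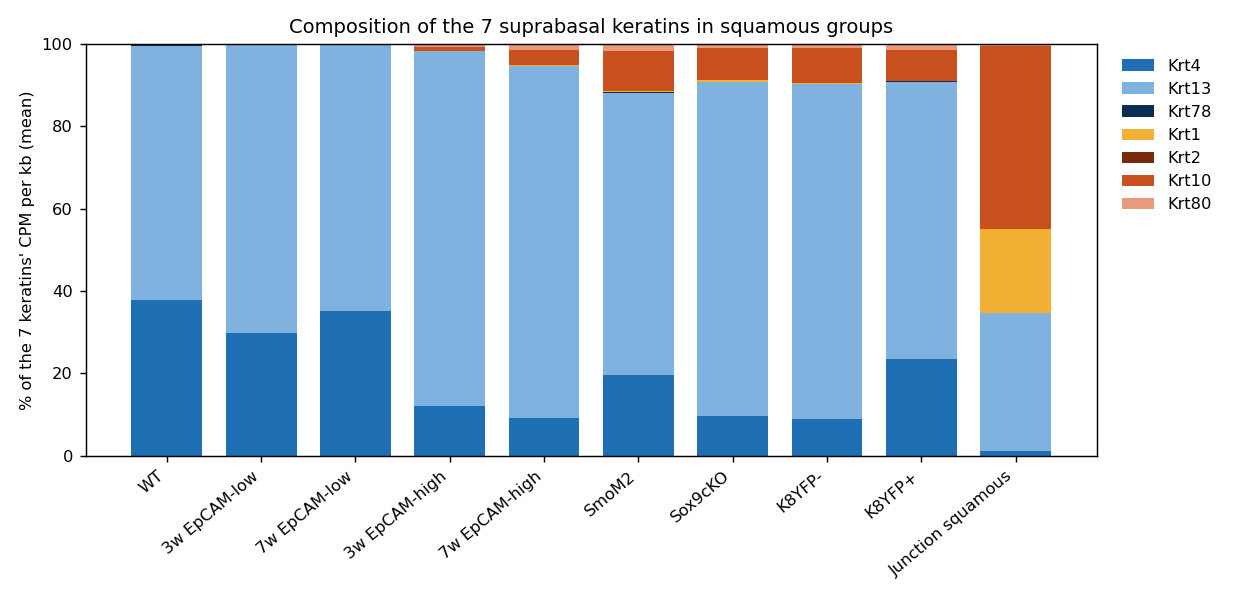
Mean share of each keratin in the 7 keratins' CPM per kb in the 10 squamous groups, as stacked bars that sum to 100%. Krt13 is the widest band in every SmoM2 group, and Krt10 (44.5%) and Krt1 (20.4%) take most of the junction squamous bar.

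Against WT, SmoM2 cells had less Krt4 and Krt13 and more Krt10, Krt1 and Krt80. Krt4 ranged from 3841 over a median of 5978 to 9794 CPM in WT, and from 601 over 1679 to 2057 CPM in SmoM2. The ranges did not overlap, and Krt4 fell by 2.23 ± 0.29 on the log2 scale (SE; adjusted p = 1.92e-05, edgeR quasi-likelihood test with Benjamini-Hochberg adjustment over all genes, as for every adjusted p here). Krt13 ranged from 5767 over 7489 to 10778 CPM in WT and from 2989 over 3932 to 4569 CPM in SmoM2, and fell by 1.17 ± 0.15 (adjusted p = 1.42e-05). Both chains of the filament pair thus fell, with the larger value for the type II chain. Krt78 did not pass (log2 fold change 0.18 ± 0.44, adjusted p = 0.758), with 2.86 to 33.4 CPM in WT and 7.48 to 37.2 in SmoM2.

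Krt10 went from 11.2 to 33.1 CPM (median 19.8) in WT to 568 to 981 CPM (median 606) in SmoM2, a rise of 4.82 ± 0.24 on the log2 scale or 28.3-fold (adjusted p = 6.91e-10). Its pair partner Krt1 went from 0.214 to 3.73 CPM (median 0.928) to 17 to 45.8 CPM (median 20.7), a rise of 3.94 ± 0.47 or 15.3-fold (adjusted p = 6.87e-06). Neither overlapped between groups. Krt80 rose by 1.59 ± 0.25 (adjusted p = 0.000113), from 15.9 to 81 CPM in WT to 139 to 209 in SmoM2. Krt2 was too low to test (means of 1.16 and 0.411 CPM). Of the 7 genes, 3 were called higher and 2 lower, where 26.2% of all 16224 genes tested were called higher and 23.3% lower.

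Other genes of squamous differentiation did not shift as a block. Of 32 tested genes of the cornified envelope and epidermal barrier, a list that holds none of the 7 keratins, 6 were higher and 9 lower in SmoM2 (median log2 fold change -0.29, against 0.01 over all genes). Degs2, a sphingolipid enzyme, rose by 4.59 ± 0.34, Calm4, a calcium-binding protein of keratinocytes, by 3.43 ± 0.33, and Cdsn, which encodes corneodesmosin, by 2.96 ± 0.39. Among 31 tested oesophageal suprabasal genes (5 listed in both sets), 10 were higher and 4 lower, with the protease genes Tmprss11b and Tmprss11d at 1.33 ± 0.09 and 2.03 ± 0.26. Of 43 tested regulators of keratinocyte differentiation, 15 were higher and 7 lower: Sox21 rose by 1.78 ± 0.13 and Maf fell by 2.17 ± 0.19. Of the 4 stress keratins, Krt6a, Krt6b and Krt17 rose (1.78, 2.46 and 3.17) and Krt16 fell by 1.03. Of 11 basal genes 3 were higher and 5 were lower, among them Krt15 (fell by 0.78 ± 0.08) and Krt14 (fell by 0.95 ± 0.16). Merkel cell markers summed to 1.82 to 11.2 CPM in WT and 26.7 to 57.5 in SmoM2, with Krt20 at 15 to 44.4 CPM there. Krt20 is also a keratin of simple epithelia, and the defining Atoh1 was at 0 in both groups. The part of these markers in the results was not tested.

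**Figure D4:**
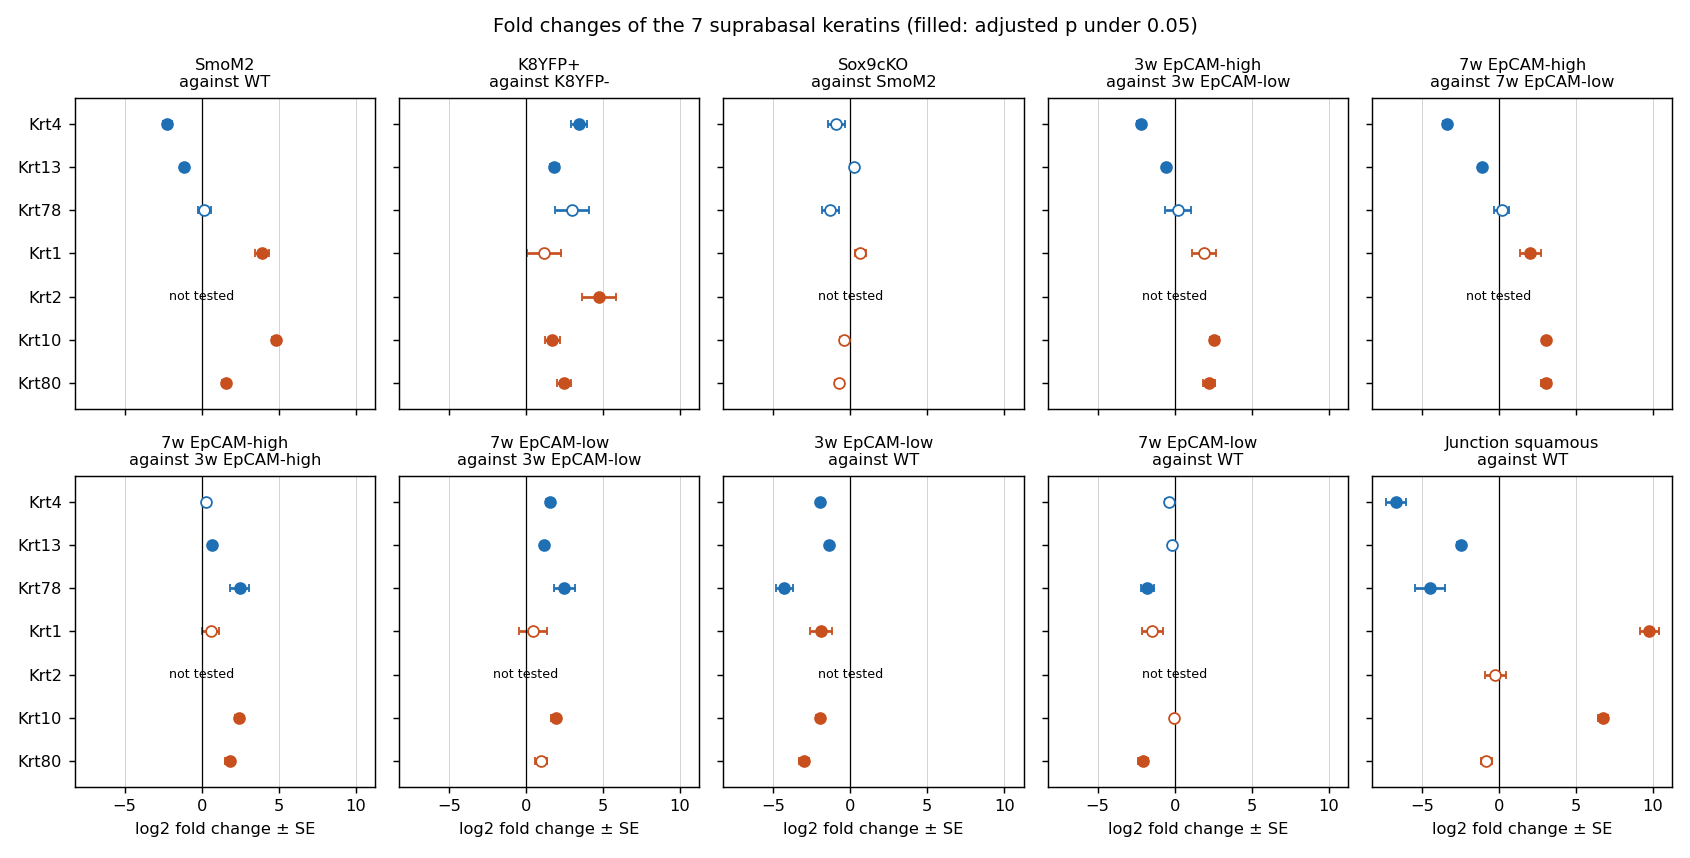
Log2 fold change ± SE of each of the 7 keratins in 10 comparisons; filled points passed an adjusted p of 0.05, and genes removed by the filter on low counts are marked as not tested. Krt4 and Krt13 lie left of 0 and Krt10 and Krt80 right of 0 for SmoM2 against WT and for both EpCAM gate comparisons.

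The time series compares EpCAM-high with EpCAM-low cells of 1 genotype label at 1 time. Whether cells of both gates carried active SmoM2 alike was not tested. At 3w, Krt4 was at 402, 454, 341 and 394 CPM in the EpCAM-high and at 1928, 1770, 1563 and 1596 CPM in the EpCAM-low libraries. It fell by 2.16 ± 0.26 on the log2 scale (adjusted p = 1.59e-06) and Krt13 by 0.56 ± 0.13 (adjusted p = 0.00441). Krt10 was at 43.2, 39.1, 27.8 and 33 CPM against 5.46, 5.04, 4.29 and 8.56 CPM, a rise of 2.58 ± 0.27 (adjusted p = 2.03e-07). Every EpCAM-high library was on one side of every EpCAM-low library for these genes. The Krt13 call was lost in the fit of all 51 libraries (adjusted p = 0.17). Krt80 rose by 2.23 ± 0.36 (adjusted p = 9.87e-05), Krt1 did not pass (1.9 ± 0.75, adjusted p = 0.0915) and neither did Krt78 (0.21 ± 0.85). With 2 of the 7 called higher and 2 lower, the background was 7.37% higher and 7.84% lower.

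At 7w the same genes lay on the same sides. Krt4 was at 926, 387, 406 and 341 CPM in the EpCAM-high and at 6001, 4712, 4703 and 5552 CPM in the EpCAM-low libraries, a fall of 3.4 ± 0.27 (adjusted p = 4.65e-10). Krt13 fell by 1.09 ± 0.13 (adjusted p = 6.23e-07), from 7159 to 7695 CPM to 3176 to 4134 CPM. Krt10 was at 253, 179, 175 and 187 CPM against 20.5, 24.1, 22.1 and 25 CPM, a rise of 3.07 ± 0.23 (adjusted p = 1.72e-10). No EpCAM-high library overlapped an EpCAM-low one for these genes. Krt80 rose by 3.08 ± 0.33 (adjusted p = 8.19e-08). Krt1 passed at 2.03 ± 0.68 (adjusted p = 0.0237) on levels of 0.268 to 3.72 CPM, and no longer did without 7w EpCAM-high 1 or 4 or 7w EpCAM-low 1 or 4 (adjusted p = 0.0547, 0.0823, 0.082 and 0.0502). Called higher were 3 of the 7 (background 15.5%) and lower 2 (background 16.8%). Merkel cell markers moved with the gate, summing to 31.7 to 45.2 CPM in EpCAM-high against 10.5 to 14 in EpCAM-low cells at 3w and to 27 to 42.2 against 3.68 to 7.23 at 7w. Of the 2 tested, Krt20 was higher at both times, Atoh1 was at 0, and their part in the result was not tested.

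The interaction of gate and time tests whether the gates differ more at 7w than at 3w. None of the 6 tested genes passed in edgeR or DESeq2, and 2 had an unadjusted p under 0.05 in edgeR, where 1.55% of all genes were called in the positive and 0.759% in the negative direction. The nearest was Krt4 (-1.24 ± 0.35, adjusted p = 0.0616; Krt13 -0.53 ± 0.19, adjusted p = 0.16). The adjusted p of Krt4 was 0.000952 without 7w EpCAM-high 1 (-1.67) and 0.0101 with replicate number as a block. Without the filter on low counts it was 4.21e-05 for Krt4 and 0.0448 for Krt13 (-0.52). 7w EpCAM-high 1 had 926 CPM of Krt4 where the other 3 of its group had 341 to 406.

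Between 3w and 7w, Krt10 and Krt13 rose in both gates. In EpCAM-high cells Krt10 rose by 2.41 ± 0.22 (adjusted p = 2.54e-08), Krt80 by 1.83 ± 0.3 (adjusted p = 4.72e-05), Krt13 by 0.66 ± 0.13 (adjusted p = 0.000382) and Krt78 by 2.47 ± 0.61 (adjusted p = 0.00256). Krt4 did not pass there (0.32 ± 0.25, adjusted p = 0.317). These are 4 of the 7 called higher and 0 lower, against a background of 22% and 19.4%. In EpCAM-low cells Krt4 rose by 1.55 ± 0.25 (adjusted p = 4.21e-05), Krt13 by 1.19 ± 0.13 (adjusted p = 4.66e-07), Krt78 by 2.5 ± 0.67 (adjusted p = 0.00484) and Krt10 by 1.93 ± 0.27 (adjusted p = 9.51e-06), again 4 higher and 0 lower (background 19.5% and 18.4%). The Krt78 call was lost in the fit of all 51 libraries (adjusted p = 0.0533). Krt80 lay at the threshold (0.98 ± 0.39, adjusted p = 0.0502; 0.0476 with replicate number as a block and 0.0487 with DESeq2). Other differentiation genes moved the same way in both gates. In EpCAM-high cells 20 of 31 tested cornified envelope genes were higher and 2 lower (median log2 fold change 1.08, against 0.02 over all genes). In EpCAM-low cells 19 of 31 were higher and 3 lower (median 1.08, against 0.02). The leading number of the raw names, whose meaning is not given, is 11 for all 3w and 12 for all 7w libraries, so that it and time cannot be told apart.

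EpCAM-low cells of the time series share the gate with WT, and both comparisons use the same 6 WT libraries. At 3w, all 6 tested keratins were lower than in WT (background 24.3% lower, 23.1% higher). Krt4 was at 1563 to 1928 CPM against 3841 to 9794 in WT (fell by 1.93 ± 0.24, adjusted p = 8.31e-07) and Krt13 at 2972 to 3352 against 5767 to 10778 (fell by 1.39 ± 0.13, adjusted p = 1.22e-08). The epidermal genes fell as well: Krt10 by 1.95 ± 0.25 (adjusted p = 1.55e-06) and Krt80 by 3.02 ± 0.34 (adjusted p = 2.27e-07). Krt78 fell by 4.28 ± 0.56 (adjusted p = 1.75e-06), from 2.86 to 33.4 CPM in WT to 0.357 to 1.13. Krt1 was called lower (fell by 1.91 ± 0.7, adjusted p = 0.0276) at levels under 4 CPM, and lost the call without WT 1 or 2 or 3w EpCAM-low 1, 2 or 4 (adjusted p = 0.0599, 0.0836, 0.0788, 0.0656 and 0.0597). The fall ran across other differentiation genes, with 29 of 31 tested cornified envelope genes lower and 2 higher (median log2 fold change -1.85, against 0.01 over all genes). Alox12b fell by 3.92 ± 0.38, Dsg1b by 2.44 ± 0.23, and the receptor Notch3 by 1.82 ± 0.12, and of 11 basal genes 3 were higher and 1 lower.

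At 7w the oesophageal pair of EpCAM-low cells lay within the WT range. Krt4 (-0.38 ± 0.23, adjusted p = 0.184), Krt13 (-0.19 ± 0.12, adjusted p = 0.211) and Krt10 (-0.03 ± 0.21, adjusted p = 0.932) did not pass, with Krt10 at 20.5 to 25 CPM against 11.2 to 33.1 in WT. Krt78 (fell by 1.78 ± 0.43, adjusted p = 0.00194) and Krt80 (fell by 2.04 ± 0.31, adjusted p = 1.97e-05) were lower, though WT 2 lay within the 7w libraries for both, with 2.86 CPM of Krt78 against 2.3 to 6.82 and 15.9 CPM of Krt80 against 10.3 to 16.6. None of the 7 was called higher and 2 were called lower, where the background was 19.4% higher and 21% lower. Cornified envelope genes were lower in 25 of 31 tested and higher in 0, with Alox12b at -2.55 ± 0.33.

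**Figure D5:**
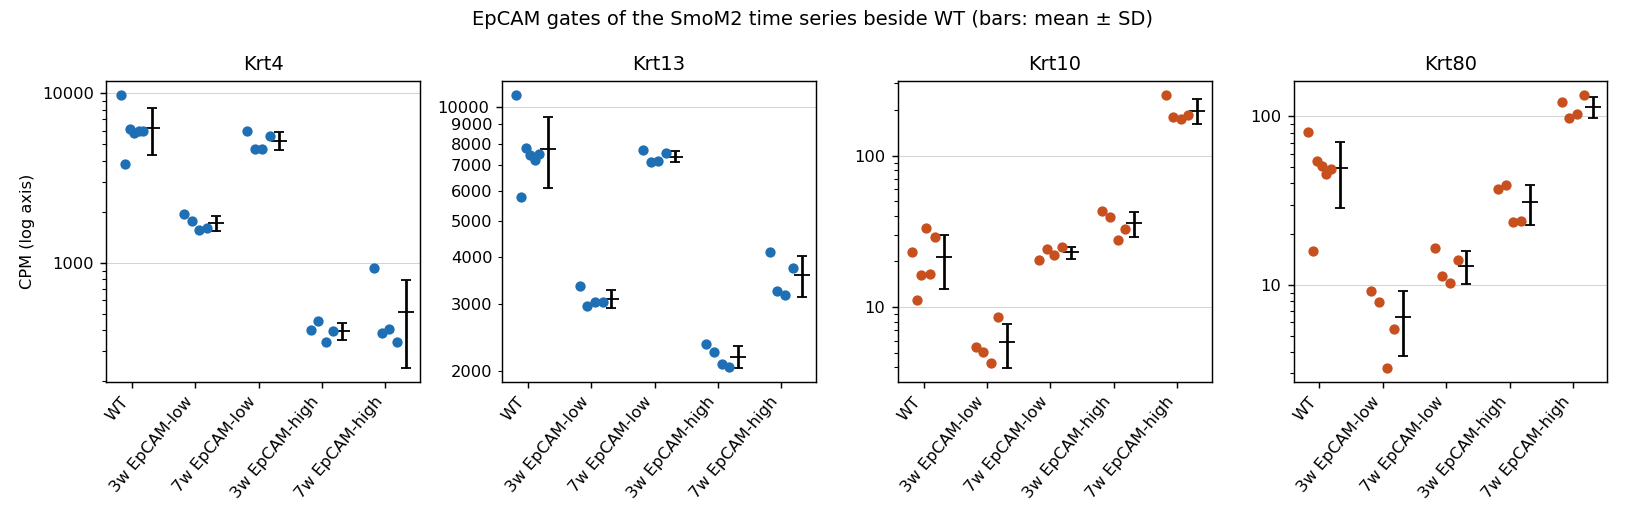
Level of Krt4, Krt13, Krt10 and Krt80 in CPM (log axes, scaled separately) in WT and in the 4 groups of the SmoM2 time series; points are libraries, and the bar beside them is the mean ± SD. EpCAM-high libraries lie below EpCAM-low libraries of the same time for Krt4 and Krt13 and above them for Krt10 and Krt80.

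K8YFP+ cells, which report Krt8, had more of both keratin types than K8YFP- cells. Krt4 was at 4765, 7912 and 5591 CPM in K8YFP+ and at 1135, 748 and 330 CPM in K8YFP-, a rise of 3.45 ± 0.5 (adjusted p = 0.00495). Krt13 was at 10542, 16721 and 13215 CPM against 4641, 6081 and 4280 CPM, a rise of 1.85 ± 0.29 (adjusted p = 0.00686). Krt80 was at 628, 307 and 465 CPM against 189, 55.8 and 76 CPM, a rise of 2.47 ± 0.47 (adjusted p = 0.0121). For each of these genes every K8YFP+ library was above every K8YFP- library. Krt10, at 2616, 1331 and 1443 CPM against 1094, 758 and 246 CPM, passed narrowly (1.72 ± 0.51, adjusted p = 0.048), and its adjusted p was 0.0262 to 0.125 with 1 library left out. Krt2 rose by 4.74 ± 1.13 (adjusted p = 0.0245) from at most 0.428 CPM to 2.09, 15.6 and 1.57 CPM, by 3.06 without K8YFP+ 2.

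Same-numbered K8YFP+ and K8YFP- libraries deviated together, and with replicate number as a block Krt10 rose by 1.92, Krt78 passed (3.71, adjusted p = 0.00177, against 0.0967 without the block) and Krt1 passed (1.29, adjusted p = 0.00751, against 0.473). Krt78 was at 203, 38 and 82.3 CPM in K8YFP+ and at 46.2, 1.71 and 3.29 CPM in K8YFP-, and Krt1 at 78.7, 9.96 and 9.17 CPM against 46.7, 7.17 and 2.63 CPM. Within each number, K8YFP+ was higher for both genes. Leaving out 1 library ended the calls of Krt80 (K8YFP- 3, adjusted p = 0.0571) and of Krt2 (K8YFP- 1, 2 or 3, 0.0591, 0.061 and 0.0892) and called Krt78 (K8YFP- 1, 0.00307). Without the block, 5 of the 7 genes were called higher and 0 lower, against 13.1% and 6.83% of all genes.

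The rise in K8YFP+ cells went together with other suprabasal genes. Of 32 tested cornified envelope genes 25 were higher and 0 lower, Krtdap by 2.72 ± 0.31 and Dmkn by 2.35 ± 0.27, and of 31 oesophageal suprabasal genes 22 were higher and 0 lower, with the envelope scaffold genes Evpl and Ppl at 1.64 ± 0.16 and 1.84 ± 0.19. Of 11 basal genes 10 were lower, among them the integrin gene Itga6, which fell by 1.41 ± 0.15, and summed basal genes were at 2797 to 4712 CPM against 11112 to 14027 CPM. The epithelial transcription factor gene Grhl1 rose by 1.86 ± 0.16. Fibroblast markers moved with the group too, with 5 of 8 higher and sums of 88.4 to 658 CPM in K8YFP+ against 34.4 to 86.2 in K8YFP-, none of the 8 being at 0. Endothelial markers summed to 26.8 to 123 against 11.7 to 20 CPM and muscle markers to 6.29 to 177 against 3.75 to 11.8 CPM. Library totals were 1.61 to 6.71 M counts against 8.53 to 9.34 M. The part of these differences in the result was not tested.

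None of the 7 keratins was called different between Sox9cKO and SmoM2 cells. Krt4 was at 829.02, 1675, 243 and 212 CPM in Sox9cKO, where SmoM2 ranged from 601 to 2057 CPM (-0.92 ± 0.55, adjusted p = 0.374). Krt10 was at 778, 494, 285 and 399 CPM (-0.4 ± 0.24, adjusted p = 0.379) and Krt1 at 64.6, 44, 16.1 and 25.8 CPM (0.66 ± 0.37, adjusted p = 0.342). The Sox9cKO libraries were spread widely and overlapped with SmoM2 for all 6 tested genes. Krt80 (-0.73 ± 0.27, adjusted p = 0.157), Krt78 (-1.29 ± 0.54, adjusted p = 0.208) and Krt13 (0.21 ± 0.2, adjusted p = 0.598) did not pass either. At an unadjusted p under 0.05 there were 2 of these 6 in edgeR, and DESeq2 called 0. Few genes passed at all, 1.18% higher and 1.48% lower. Sox9cKO 2 decided this in part: without it Krt4 (fell by 1.74, adjusted p = 0.0394), Krt78 (fell by 1.87, adjusted p = 0.0469) and Krt80 (fell by 1.13, adjusted p = 0.00483) were called lower, and 2153 genes passed in place of 454. In the oesophageal suprabasal list 5 of 31 tested genes fell, including Mal by 3.44 ± 0.53 and Psca by 4.31 ± 0.78, and of 32 cornified envelope genes 0 were called in edgeR.

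Normal squamous cells of the junction had more Krt1 and Krt10 and less Krt4, Krt13 and Krt78 than WT oesophagus, the same WT libraries serving here as for SmoM2. Krt1 was at 1057, 1622 and 1066 CPM, against 0.214 to 3.73 in WT (rise of 9.75 ± 0.62 on the log2 scale, adjusted p = 7.02e-17), and Krt10 at 1959, 2548 and 2428 CPM (6.76 ± 0.31, adjusted p = 4.37e-21). Krt4 was at 61.1, 72.4 and 45.6 CPM and fell by 6.7 ± 0.66 (adjusted p = 3.75e-11), while Krt13, at 1274, 1266 and 1565 CPM, fell by 2.49 ± 0.26 (adjusted p = 1.97e-10). All libraries of the 2 groups were apart for these 4 genes. Krt78 fell by 4.49 ± 0.98 (adjusted p = 0.000365). Krt80 did not pass (-0.84 ± 0.35, adjusted p = 0.0682; 0.0144 without WT 2), and was called higher in SmoM2, a difference that was not tested. Krt2 did not pass (-0.24 ± 0.69). Called higher were 2 of the 7 (background 16.2%) and lower 3 (background 14.3%).

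The high Krt1 and Krt10 of junction squamous cells did not come with a rise of the whole cornified envelope list. Of 34 tested genes 3 were higher and 16 lower, with Tgm3, an envelope transglutaminase, at -6.21 ± 0.39 and Calm4 at -4.47 ± 0.46. The 3 higher genes were Ivl, which encodes involucrin (4.35 ± 0.54, at 26.1 CPM against 1.29 in WT), Krt77 and Skint3. Of 29 other tested keratins 19 were higher and 5 lower. Between the members on chromosome 15, Krt79 rose by 4.78 and Krt77 by 1.32, the latter to 2.05 ± 0.561 CPM. Krt7 rose by 8.18 and Krt42 by 4.57. Of 45 tested regulators of keratinocyte differentiation, 5 were higher and 17 lower (median log2 fold change -0.32). Hes1 and Pou3f1 were among the higher ones, at 2.47 ± 0.21 and 3.43 ± 0.31. Strain is not given for these libraries and their gate differs from that of WT.

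Columnar cells of the junction had little of the squamous pairs. Against the squamous side, Krt1 fell by 9.93 ± 0.26 on the log2 scale (adjusted p = 9.07e-11), to 1.02 to 2.35 CPM. Krt10 fell by 8.63 ± 0.19 (adjusted p = 4.38e-11), to 5.42 to 8.85 CPM, and Krt13 fell by 7.82 ± 0.35 (adjusted p = 3.8e-09), to 3.4 to 15.5 CPM. Krt4 and Krt80 fell by 3.94 ± 0.52 and 3.82 ± 0.22 (adjusted p = 3.13e-05 and 3.06e-08). Krt78 alone of the 6 tested was higher in columnar cells, at 6.76, 10, 4.67 and 10.7 CPM against 0.313, 0.768 and 0.855 CPM (3.29 ± 0.42, adjusted p = 2.55e-05). This made 5 lower and 1 higher, where 35.2% of all genes were lower and 39.2% higher. Immune markers summed to 200 to 510 CPM in columnar and 27.9 to 38.7 in squamous cells, with 4 of 6 tested higher and 2 lower. Merkel cell markers summed to 94.7 to 294 against 36.6 to 53.2 CPM, with Atoh1 at 0 in columnar cells. That list holds the simple epithelial keratin Krt20, and it summed to 528 to 3170 CPM in gut. The part of these markers in the result was not tested.

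In embryonic oesophagus the suprabasal keratins were low. Krt4 was at 35.1 and 63 CPM (fell by 7.52 ± 0.83 against WT, adjusted p = 1.45e-10) and Krt13 at 24.1 and 45.9 CPM (fell by 8.32 ± 0.43, adjusted p = 1.68e-20). Krt10, at 6.19 and 8.98 CPM, fell by 2.02 ± 0.41 (adjusted p = 3.31e-05), and Krt80, at 11.5 and 20.1 CPM, by 2.17 ± 0.45 (adjusted p = 4.57e-05). Krt4 and Krt13 were 184-fold and 320-fold lower, Krt10 and Krt80 4.06-fold and 4.51-fold lower, and only Krt80 of these overlapped with WT. Krt2 fell by 3.87 ± 1.07 (adjusted p = 0.00181) on 2 counts in all, and Krt78 and Krt1 did not pass (-1.22 ± 0.74 and 0.11 ± 0.9). No keratin of the 7 was called higher and 5 were lower (background 36.1% higher and 27.8% lower). Fibroblast markers summed to 340 to 559 CPM in embryo and 44.5 to 129 in WT, muscle markers to 31.7 to 36.2 against 2.44 to 9.92, and Merkel cell markers to 121 to 222 against 1.82 to 11.2, with Atoh1 at 0. Higher were 6 of 8, 4 of 5 and 3 of 5 tested, and their part was not tested. Embryo and WT also differ in genotype label and in sorting, which cannot be told apart from stage.

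Krt10 has a neighbour on the other strand, Gm11940 (chr11:99387340-99387897), whose exons share 146 of their 417 bases with exons of Krt10. Whether counting used strand is not given in the sources used here, and reads of the pair cannot then be told apart. Gm11940 stood at 33.4% ± 3.29 of the Krt10 CPM in WT, 38.1% ± 2.19 in SmoM2 and 39.3% ± 0.438 in junction squamous cells, and at 5.56% to 41.1% over all libraries. Its fold change followed that of Krt10, with a rise of 5 ± 0.24 in SmoM2 against WT (adjusted p = 4.86e-10). Adding its counts to Krt10 moved the epidermal share of SmoM2 from 11.6% to 14.8% and that of junction squamous cells from 65.3% to 70.4%. Krt80 is overlapped by Gm35853 and Mir1941 on the other strand, with the same limit.

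Likeness was taken over the 14 groups on log2(group mean CPM + 1), values that share libraries and depth between genes. Krt4 and Krt13 were most alike among the 7 (Pearson's r = 0.943), followed by Krt1 and Krt10 (0.866) and Krt10 and Krt80 (0.827). Krt4 and Krt1 had r = 0.127. Other values crossed the types: Krt80 had 0.784 with Krt13 and 0.704 with Krt4 against 0.52 with Krt1, and Krt2 had 0.6 with Krt4 against 0.361 with Krt1. Krt78 had 0.12 with Krt4, -0.01 with Krt13 and at most 0.448, with Krt2. Among 11635 genes with a mean of at least 10 CPM in some group, those among the most alike to Krt4 were Diaph1 (0.956) and Crct1 (0.956), and the most alike to Krt13 were the protease gene Klk11 (0.993), Dmkn (0.985) and Perp (0.984). Krt80 was most like the connexin gene Gjb6 (0.965), Klk8 (0.953) and Aox4 (0.943). For Krt10 they were the kinase gene Tec (0.925), Krt42 (0.913) and Foxc1 (0.91), for Krt1 Acyp2 (0.873), Krt42 (0.872) and Trpm6 (0.826), and for Krt78 Sh3gl1 (0.916), Tpcn1 (0.9) and Spint1 (0.888). These are descriptions over 14 groups and carry no test.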

How the data were processed

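Total RNA of sorted mouse cells was sequenced from Ovation Solo libraries on a NovaSeq, per the labels' protocols. The authors deposited whole-number counts for 52636 Ensembl genes, of which 10741 had no count in any library. STAR 2.5.3a, HTSeq, edgeR, GRCm38 and mm10 are named per the submitters' processing notes. Which annotation the counting used, and whether it used strand, is not given in the sources used here. GENCODE M21 held 52403 of the gene IDs and gave symbols, coordinates and principal transcripts.

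CPM use library totals. Tests used edgeR 4.0.16 (R 4.3.3) with TMM scaling, filterByExpr (minimum count 10, total 15) and its quasi-likelihood F test, 2-sided, with adjustment over all genes tested and a threshold of 0.05. Time-series and EpCAM-low comparisons came from 1 fit of these groups and WT, embryo and junction squamous against WT from all 51 libraries, others from their own groups. Only the fits for SmoM2 against WT and for K8YFP+ against K8YFP- were tested on simulated data. Those data had independent libraries and the same spread for every gene, unlike the close WT pairs and the K8YFP libraries that deviated together. The members and gene lists were chosen with earlier results of these data known. The members are named in every comparison; from a list, up to 3 called genes with the smallest p, and defining genes, may be named. Ivl, Skint3, Krt77 and Krt79 beside the junction squamous cells were chosen after their values were seen. Some genes that this rule names are not reported here. Residuals of same-numbered libraries correlated above 0.1 in every pair for K8YFP (0.291 to 0.409) and the 3w gates (0.165 to 0.295). The main fits held no term for replicate number, so their SE and adjusted p are unpaired there too. Replicate number entered only as a block among the alternatives. Alternatives were RLE scaling, no filter, DESeq2 1.42.0, a replicate block, 1 fit of all libraries, near-identical WT pairs summed and leaving out each library.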

Additional observations from a re-analysis of the deposited data

Results flagged for a closer look

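Of 56 sets of 1 keratin in 1 group of 4 to 6 libraries, 6 had a highest or lowest library far from the rest. About 1 in 20 would be so for independent, normally distributed values. These sets share libraries and some hold few counts, so that rate need not hold here, and an excess over it was not tested. Krt4 was at 926 CPM in 7w EpCAM-high 1, the next library being at 406, and Krt10 was at 253 CPM in that library, the next being at 187. Krt1 was at 45.8 CPM in SmoM2 1, the next being at 22.6, and the raw name of that library begins with another number than those of the other 5. Krt10 was at 981 CPM in SmoM2 4, the next being at 656. Krt2 was at 3.77 CPM in WT 1, the next being at 0.963, and at 0.17 CPM (1 count) in junction columnar 2, the others being at 0.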

How the results depend on the processing

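For single keratins under alternatives other than leaving out a library, 400 values kept their direction and side of the threshold, 14 gained and 4 lost a call, and 4 changed sign without a call. With 1 library left out these were 689, 9, 18 and 27. No called direction changed sign.

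Genes passing for K8YFP+ against K8YFP- were 3110, and 4785 with the replicate block, 6733 in the fit of all 51 libraries and 1016 (without K8YFP- 3) to 2263 with 1 library left out. For Sox9cKO against SmoM2 they were 454, and 767 without the filter, 125 with the replicate block, 1276 with DESeq2, 1524 in the fit of all libraries and 207 (without Sox9cKO 3) to 2153 (without Sox9cKO 2) with 1 left out. The fit of all libraries gave 1378 for the 3w gates (2625) and 42 for gate by time (398). That fit also ended the calls of Krt13 between the 3w gates (adjusted p = 0.17), Krt1 between the 7w gates and in 3w EpCAM-low cells against WT (0.222 each) and Krt78 between the EpCAM-low times (0.0533), and the cause was not tested.

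Uncalled log2 fold changes that changed sign were Krt10 in 7w EpCAM-low cells against WT (0.043 with the block, 0.021 with WT pairs summed, -0.16 to 0.12 with 1 library left out) and Krt1 in embryo (-0.36, -0.039, and -0.37 to 0.61). With 1 library left out, Krt78 ranged from -0.14 to 0.58 for SmoM2 against WT, -0.10 to 0.40 and -0.057 to 0.41 for the 3w and 7w gates and -0.26 to 0.29 for gate by time. Krt1 ranged from -0.64 to 3.15 for K8YFP and -0.41 to 0.40 for gate by time, Krt4 from -0.12 to 0.47 for the EpCAM-high times and Krt2 from -0.62 to 0.59 for junction squamous cells against WT. Without the filter, Krt1 passed for the 3w gates (0.0258) and Krt4 and Krt1 in 7w EpCAM-low cells against WT (0.0273 and 0.0315).

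The epidermal share on CPM in place of CPM per kb was 0.512% in WT, 14.3% in SmoM2 and 71.3% in junction squamous cells, and without Krt80 it was 0.15%, 10.2% and 65.2%. Lengths of all exons gave 0.257%, 11.4% and 63.8%, and adding Gm11940 gave 0.399%, 14.8% and 70.4%. These last alternatives were chosen after seeing the data. Depth limits Krt2, which had 0 to 31 counts per library, and Krt1 in WT (2 to 30) and in the EpCAM-low groups (1 to 6).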
